A study of Canis lupus familiaris with 30 samples.

Results

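The genes described here are 8 genes that mark B-cell identity: PAX5, EBF1, CD79A, CD79B, MS4A1, CD22, BLK and BTK. They were chosen by name, and each was looked up by its Ensembl gene ID among the 32704 gene IDs of the deposited FPKM matrix. FPKM is the read count of a gene scaled by its transcript length and by the depth of the library. Of the 8 genes, 3 had an ID among the 5086 IDs that could be paired with a symbol: PAX5 (ENSCAFG00000002357), CD22 (ENSCAFG00000007036) and BTK (ENSCAFG00000017669). The other 5, EBF1, CD79A, CD79B, MS4A1 and BLK, were not analysed here. All 3 genes passed the filter for testing, a mean above 1 FPKM over the 30 libraries, as did 14257 gene IDs in all.

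The libraries came from fine needle aspirates of enlarged lymph nodes of 15 dogs with lymphoma that had received at most a single prednisone injection before enrolment. Each dog gave 1 library at the six-week timepoint of CHOP (prednisone and vincristine with cyclophosphamide and doxorubicin) and 1 library at the initial timepoint, before treatment. By the labels, the lymphoma had an unknown immunophenotype in 5 dogs, was of B-cell type in 7 and of T-cell type in 3. No healthy node and no untreated dog was sampled, and an aspirate holds all cells of the node that entered the needle, so that fewer B cells and less RNA per B cell cannot be told apart.

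B lymphocytes are set apart from other blood cells by a small set of transcription factors that switch on the genes of the B-cell receptor and its signalling chain. PAX5, a paired-box transcription factor, commits progenitors to the B lineage and is kept on until a B cell becomes a plasma cell. CD22 is a sialic acid binding surface protein that dampens signals from the B-cell receptor. BTK is the cytoplasmic tyrosine kinase that carries the signal of that receptor onward, and it is also used by myeloid cells but not by mature T cells. In the diagnosis of lymphoma several of these genes are used to tell B-cell from T-cell tumours.

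Total read counts were 4318394 to 43413353 per library, with a median of 16327922.5. In 18 libraries, those of 9 dogs, the count of a gene ID followed its FPKM, and Spearman's rho between the 2 over gene IDs was 0.880 to 0.983. In the 12 libraries of the other 6 dogs (024, 027, 028, 029, 030 and 035) rho was 0.0868 to 0.117, so that the count and the FPKM given for an ID hardly followed each other there. Which of the 2 tables is right for these 12 libraries was not tested. FPKM values were used for all 15 dogs, and counts only for the 9. The values of the 6 dogs, with 028 and 029 among them, thus rest on the FPKM table alone.

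Levels of all 3 genes were high in most nodes. Over the 30 libraries, BTK had a median of 105.3 FPKM (lowest 3.01, highest 187.3), CD22 had a median of 71.4 FPKM (lowest 1.12, highest 160.8) and PAX5 had a median of 22.03 FPKM (lowest 0.291, highest 62.8). Within a library, the median rank of BTK was at percentile 97.5 of all gene IDs, that of CD22 at 96.1 and that of PAX5 at 89.3. The kinase BTK was the most abundant and PAX5 the least in 24 libraries, and in the other 6 CD22 exceeded BTK with PAX5 again lowest. PAX5 thus had the lowest level of the 3 in all 30 libraries. The ratio of levels was not fixed: BTK over PAX5 had a median of 4.89 (range 2.03 to 10.4), CD22 over PAX5 a median of 2.66 (range 1.14 to 4.58) and BTK over CD22 a median of 1.79 (range 0.667 to 5.21).

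The first question was whether the 3 genes followed the immunophenotype label before treatment. At the initial timepoint, PAX5 had a lowest value of 17.7, a median of 27.2 and a highest value of 60.2 FPKM in the 7 dogs immunophenotyped as B-cell lymphoma. In the 3 T-cell dogs it had 1.52 FPKM in dog 028, 0.291 FPKM in dog 036 and 62.8 FPKM in dog 038. Dogs 028 and 036 lay far below every B-cell dog, and dog 038 lay above every one of them, so the groups overlapped.

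CD22 had a lowest value of 46.1, a median of 79.2 and a highest value of 160.8 FPKM in B-cell dogs at the initial timepoint. In T-cell dogs it had 3.43 FPKM in dog 028, 1.12 FPKM in dog 036 and 71.8 FPKM in dog 038. The surface receptor showed the same split, with dog 038 inside the B-cell range and the other T-cell dogs below it.

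BTK had a lowest value of 41.5, a median of 125.6 and a highest value of 178.5 FPKM in B-cell dogs. In T-cell dogs it had 8.13 FPKM in dog 028, 3.01 FPKM in dog 036 and 127.4 FPKM in dog 038. The lowest B-cell dog for all 3 genes was dog 029.

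**Figure D1:**
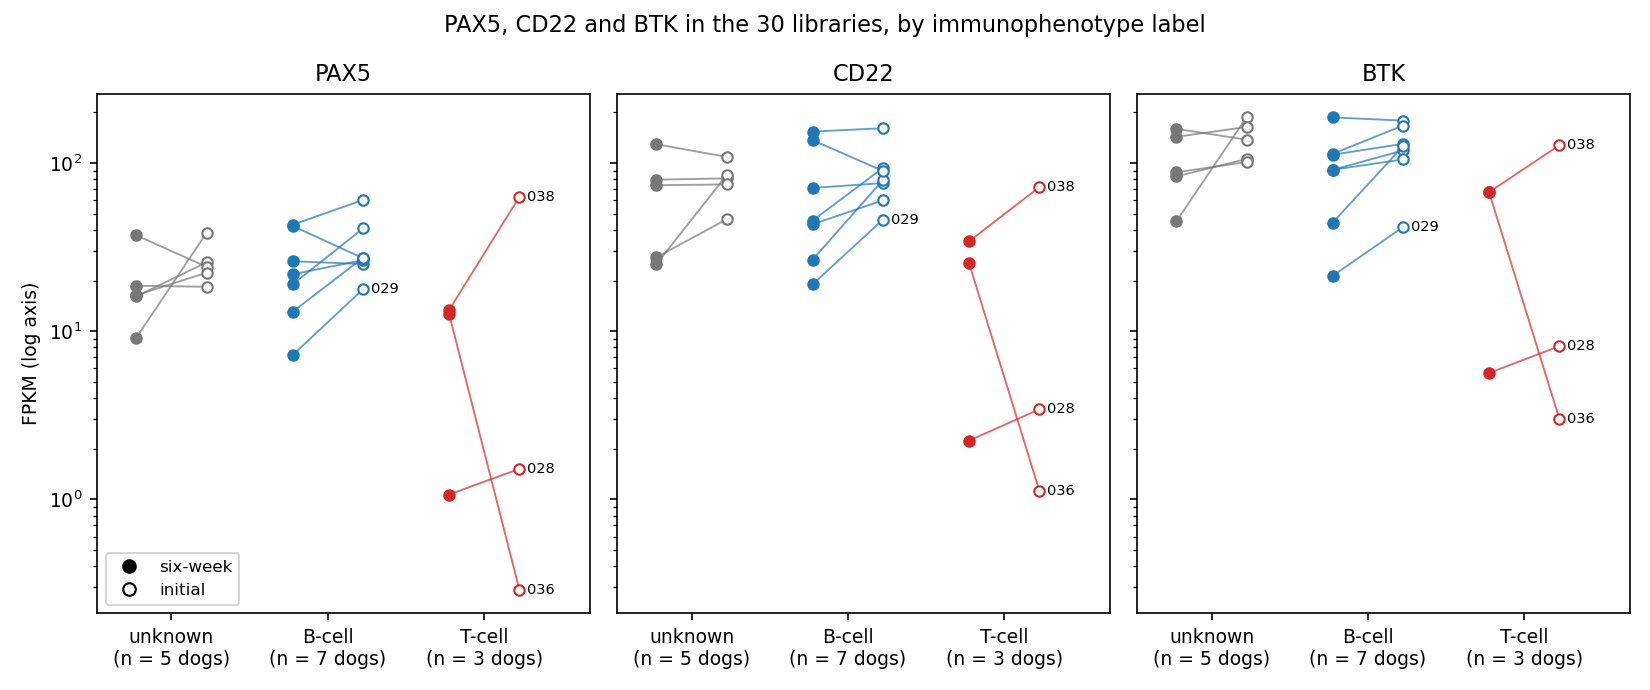
FPKM of PAX5, CD22 and BTK on a log axis in each of the 30 libraries, by immunophenotype label (5 unknown, 7 B-cell and 3 T-cell dogs), with a line joining the six-week (filled) and the initial (open) library of a dog. At the initial timepoint dogs 028 and 036 lie apart at the bottom of each panel, for example at 1.52 and 0.291 FPKM of PAX5, while dog 038, also labelled T-cell, lies at 62.8 FPKM.

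On the log2 scale of FPKM + 1, the initial B-cell minus T-cell difference was 3.21 (SE 0.737) for CD22, 2.78 (SE 0.737) for BTK and 2.39 (SE 0.806) for PAX5, with 7 and 3 dogs. None of the 3 passed the threshold, an adjusted p under 0.05 by limma with Benjamini-Hochberg adjustment over all 14257 genes. The adjusted p was 0.0571 for CD22, 0.0717 for BTK and 0.115 for PAX5. All 3 had an unadjusted p under 0.05 by limma, as did 3106 of all 14257 genes. The same fit called 49 of 14257 genes, 34 higher and 15 lower in B-cell dogs, a background of 0.344%. By edgeR on the counts of 9 dogs (4 B-cell, 2 T-cell and 3 unknown), 0 of the 3 genes were called, with log2 fold changes of 1.54 for CD22, 0.889 for BTK and 0.302 for PAX5. The T-cell arm of that fit was dogs 036 and 038 only, and limma on the FPKM of the same 9 dogs gave 3.04, 2.41 and 2.06 in the same order. The 2 sizes are unlike measures, because edgeR models the counts themselves and limma averages log2 values.

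The outcome rested on single dogs. Without dog 038, all 3 genes were higher in B-cell dogs: CD22 by 4.74 (SE 0.399, adjusted p = 3.43e-06 by limma), BTK by 4.25 (SE 0.449, adjusted p = 2.51e-05 by limma) and PAX5 by 4.10 (SE 0.381, adjusted p = 7.56e-06 by limma). That fit called 2296 genes, a background of 16.1%. Its T-cell arm was dogs 028 and 036 only. Dog 038 was the T-cell dog whose members lay inside or above the B-cell range, so the values without it are given as a description. Without dog 029, CD22 and BTK were called, with differences of 3.35 (adjusted p = 0.0235 by limma) and 3.02 (adjusted p = 0.0269 by limma), and PAX5 was not, with 2.51 (adjusted p = 0.0727 by limma). That fit called 1300 genes, a background of 9.12%. Without dog 036 the differences were 2.19 for CD22, 1.75 for BTK and 1.29 for PAX5, and without dog 028 they were 2.72, 2.34 and 1.77 in that order, none of them called.

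**Figure D2:**
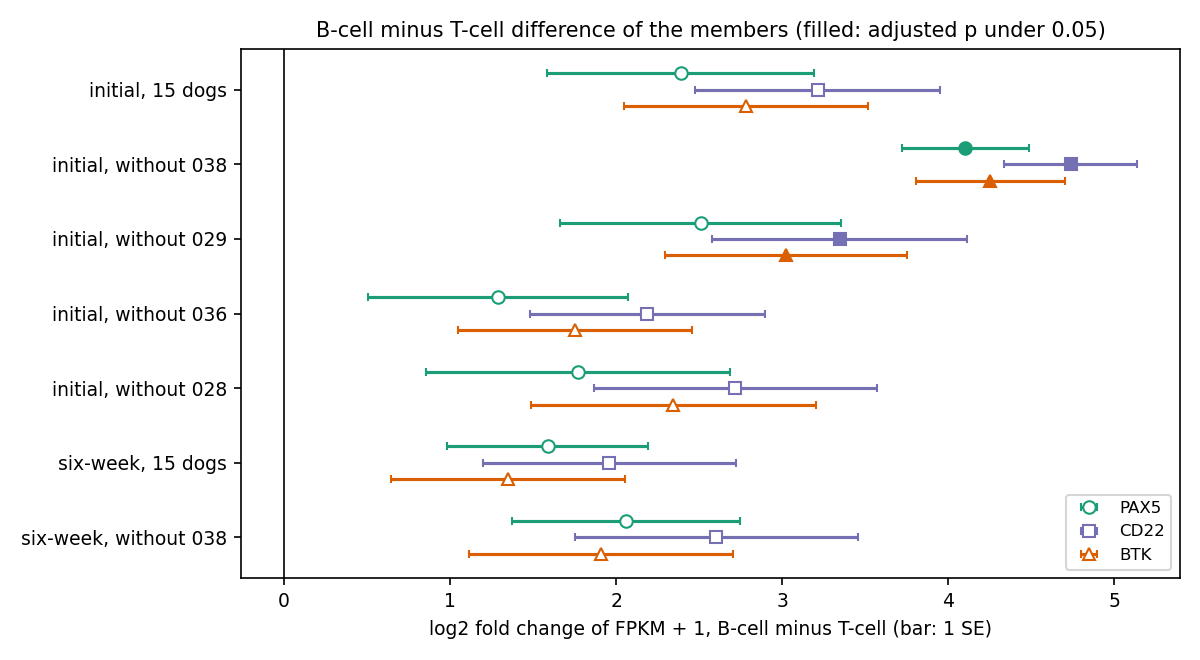
The B-cell minus T-cell difference of PAX5, CD22 and BTK in log2(FPKM + 1), with bars of 1 SE, at the initial and the six-week timepoint, with all 15 dogs, without dog 038, 029, 036 or 028 (initial) and without dog 038 (six-week). Every difference drawn is positive, and the filled points, with an adjusted p under 0.05 by limma, are all 3 genes at the initial timepoint without dog 038, where CD22 is at 4.74, and CD22 and BTK without dog 029. The points without dog 038 are a description, because its own members lay inside or above the B-cell range.

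T-cell genes went against the label in the initial libraries of dogs 038 and 029. The 3 members went against it in dog 038 but not in dog 029, where they were the lowest of the B-cell dogs and yet above those of dogs 028 and 036. CD3E, a chain of the T-cell receptor complex, had 178.2 FPKM in the initial library of dog 029, labelled B-cell, and 1.56 to 27.4 FPKM in the other 6 B-cell dogs. In the library labelled T-cell of dog 038 it had 14.6 FPKM, against 188.2 FPKM in dog 028 and 328.4 FPKM in dog 036. The summed level of the 12 T-cell genes with an ID was 648.7 FPKM in dog 029, 52.8 FPKM in dog 038, 987.8 FPKM in dog 028 and 1219 FPKM in dog 036. None of these 12 genes was at 0 throughout a group, and CD3D, another chain of the complex, was at least 4.67 FPKM in every initial library. Of the initial libraries, that of dog 029 had the highest summed macrophage level, 130.6 FPKM, and the lowest summed mitosis level, 220.6 FPKM. Dog 038 came next in both, at 101.2 and 356.1 FPKM. With both libraries left out, a choice made after seeing the data and because of their T-cell genes, the differences were 4.87 for CD22, 4.49 for BTK and 4.22 for PAX5. The fit then called 24.2% of all genes. Because the dogs were removed for markers that bear on this contrast, these values are given as a description.

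**Figure D3:**
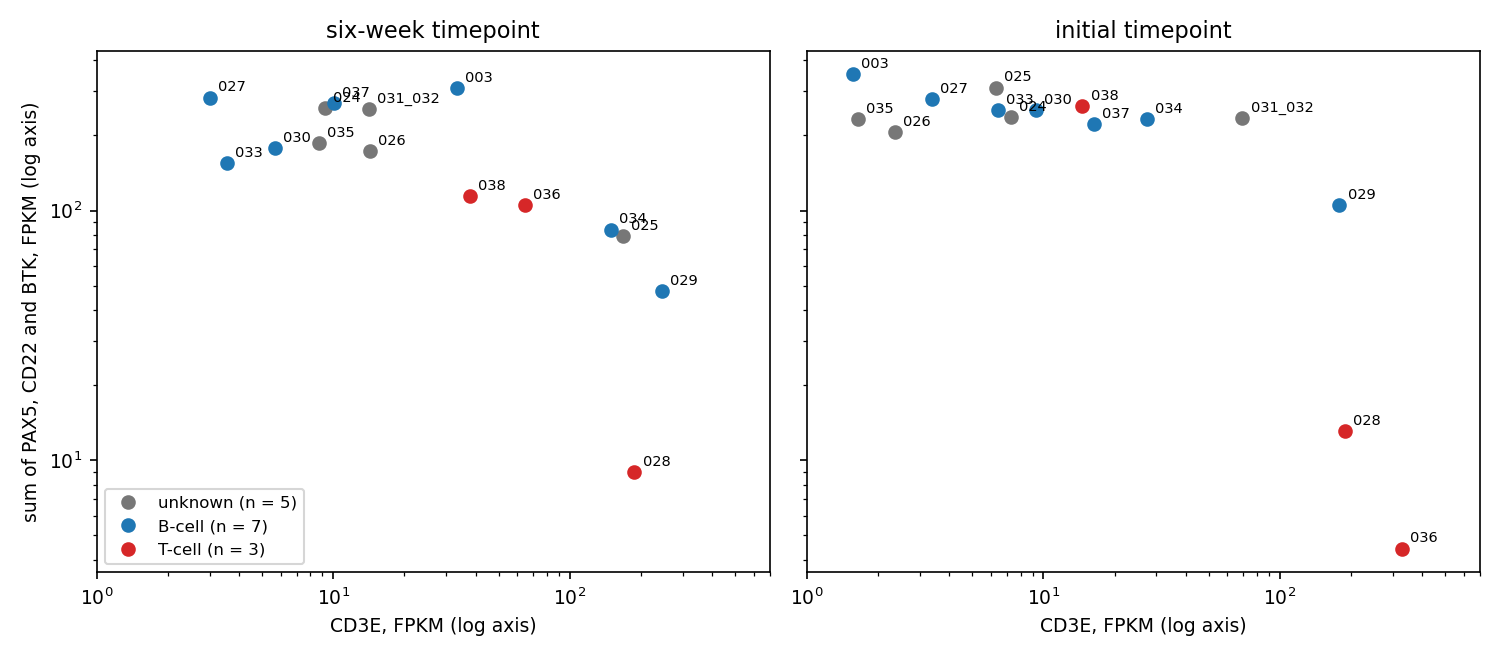
The sum of PAX5, CD22 and BTK (FPKM, log axis) against CD3E (FPKM, log axis) in each dog at the six-week and the initial timepoint, coloured by immunophenotype label. Dogs 028 and 036 are at the lower right at the initial timepoint, dog 038 is among the B-cell dogs, dog 029 lies between, and at the six-week timepoint dog 036 is at 105.2 FPKM on the vertical axis.

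Other B-lineage genes were mostly positive in the initial B-cell minus T-cell contrast, and T-cell genes negative. Of 5 B-cell receptor signalling genes tested out of 20 listed, 0 were called between B-cell and T-cell dogs at the initial timepoint, with a median log2 fold change of 1.04, beside 0.04 over all genes tested. PTPN6, the phosphatase SHP-1 that CD22 recruits, had a difference of 1.42 (SE 0.347, adjusted p = 0.0628 by limma), and VAV2, an exchange factor of the receptor pathway, had 1.48 (SE 0.641, adjusted p = 0.196 by limma). Of 7 B-lineage factors and surface proteins tested out of 27, 1 was called. This was FCRL1, an Fc receptor-like surface protein of B cells, which was higher in B-cell dogs by 2.21 (SE 0.421, adjusted p = 0.0445 by limma). All 7 were positive, with a median of 1.41. Such a lean was not limited to B-lineage lists. All 6 stroma and endothelium genes were positive (median 0.61), as were 13 of 14 mitosis genes (median 0.29). Of 8 macrophage and monocyte genes 4 were positive (median -0.08), and of 3 neutrophil genes 1 was (median -0.35). In these 4 lists 0 genes were called.

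Of 3 germinal centre genes tested out of 13, 0 were called, with 3.16 (SE 0.777, adjusted p = 0.0654 by limma) for the transcription factor MEF2C and 2.19 (SE 0.480, adjusted p = 0.0552 by limma) for the signalling adaptor STAP1. Of 6 plasma cell genes tested out of 10, 0 were called, with 1.73 for the transcription factor IRF4 and 1.47 for the surface receptor SLAMF7. Of 12 T-cell genes tested out of 22, 0 were called, all 12 were negative, and the median was -2.59. THEMIS, a T-cell receptor signalling protein, had -3.57 and GATA3, a transcription factor of T cells, had -3.31. Without dog 038, 3 of 5 receptor signalling genes, 5 of 7 B-lineage genes, 2 of 3 germinal centre genes and 1 of 6 plasma cell genes were higher in B-cell dogs and 11 of 12 T-cell genes were lower, with the background of 16.1% as above. These counts without dog 038 are also a description only.

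The second question was where the 5 dogs of unknown immunophenotype lay. PAX5 had 18.4, 38.5, 25.7, 24.1 and 22.3 FPKM at the initial timepoint in dogs 024, 025, 026, 031_032 and 035. CD22 had 81.0, 84.7, 74.6, 108.6 and 46.3 FPKM in the same order, and BTK had 137.5, 187.3, 105.7, 101.3 and 163.7 FPKM. Every one of these values lay inside the range of the B-cell dogs, except BTK in dog 025, which was above the highest B-cell value of 178.5 FPKM. The lower end of that range was dog 029 for all 3 genes, a dog whose T-cell genes went against its label. The next lowest B-cell values were 25.1 FPKM of PAX5 (dog 027), 59.97 FPKM of CD22 (dog 030) and 105.0 FPKM of BTK (dog 037). PAX5 in dogs 024, 031_032 and 035, CD22 in dog 035 and BTK in dog 031_032 lay below these values. The unknown minus B-cell difference was -0.25 (SE 0.684) for PAX5, -0.08 (SE 0.626) for CD22 and 0.24 (SE 0.625) for BTK. None of the 3 was called by limma (adjusted p of 0.996 to 0.998), nor was any other gene, a background of 0%, with 420 genes at an unadjusted p under 0.05, and edgeR on the counts of 9 dogs also called 0. A difference that misses the threshold at this size does not show that the groups are alike. The CD3E level of these dogs was 1.64 to 69.4 FPKM at the initial timepoint.

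At the six-week timepoint the same B-cell minus T-cell contrast was smaller. PAX5 had a lowest value of 7.20, a median of 21.8 and a highest value of 42.9 FPKM in B-cell dogs, and 1.07, 12.7 and 13.3 FPKM in T-cell dogs 028, 036 and 038. CD22 had 18.997, 45.5 and 153.7 FPKM as lowest, median and highest in B-cell dogs, and 2.23, 25.4 and 34.1 FPKM in the T-cell dogs. BTK had 21.3, 91.0 and 186.5 FPKM in B-cell dogs, and 5.64, 67.1 and 67.0 FPKM in the T-cell dogs. Only dog 028 remained below all B-cell dogs for all 3 genes.

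The six-week difference was 1.96 (SE 0.762, adjusted p = 0.555 by limma) for CD22, 1.59 (SE 0.608, adjusted p = 0.541 by limma) for PAX5 and 1.35 (SE 0.705, adjusted p = 0.599 by limma) for BTK. No gene was called in this contrast, a background of 0%. By limma, 1245 genes had an unadjusted p under 0.05, CD22 and PAX5 among them, and edgeR on the counts of 9 dogs called 0. The difference between the 2 timepoints in this contrast is the change in B-cell dogs minus that in T-cell dogs, given below.

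The third question was how the 3 genes moved over 6 weeks of CHOP. PAX5 was lower at the six-week timepoint in 10 of 15 dogs, CD22 in 12 and BTK in 12. All 3 were lower in 10 dogs, all 3 were higher in 1 dog (036), and 4 dogs were mixed. Averaged over dogs, the log2 change was -0.32 (SE 0.304) for PAX5, -0.26 (SE 0.295) for CD22 and -0.24 (SE 0.310) for BTK. None of the 3 was called by limma with the dog as a block (adjusted p of 0.685, 0.741 and 0.779 in that order), and no gene was, a background of 0%. In that fit 1823 genes had an unadjusted p under 0.05, none of the 3 among them, and edgeR on the counts of 9 dogs called 0.

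Of the 15 dogs, dog 036 moved these averages most. Its node had 12.7 FPKM of PAX5 at the six-week timepoint and 0.291 FPKM at the initial timepoint, a log2 change of 3.41. CD22 had 25.4 and 1.12 FPKM in the same order, a change of 3.63, and BTK had 67.1 and 3.01 FPKM, a change of 4.09. CD3E moved the other way, with 64.7 FPKM at the six-week timepoint and 328.4 FPKM at the initial timepoint. Its summed macrophage genes were 142.8 FPKM at the six-week timepoint and 12.3 FPKM at the initial timepoint. Without dog 036 the mean change over the other 14 dogs was -0.59 for PAX5, -0.54 for CD22 and -0.55 for BTK (adjusted p of 0.299, 0.282 and 0.282 by limma); none was called.

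The counts of dog 036 showed the same shift. PAX5 had 91 reads at the six-week timepoint and 7 reads at the initial timepoint, CD22 had 412 and 54 reads, and BTK had 691 and 91 reads. The six-week library was the shallowest of all, at 4318394 counts. Over the 9 dogs whose counts could be used, the log2 change of CPM, the count scaled to the library's total, had the same sign as that of FPKM in 27 of 27 gene and dog combinations, with a median absolute difference of 0.0085. The largest differences were those of dog 036, where the change by CPM was 4.19 for CD22, 3.83 for PAX5 and 4.29 for BTK, which is 0.554, 0.417 and 0.205 above that by FPKM.

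**Figure D4:**
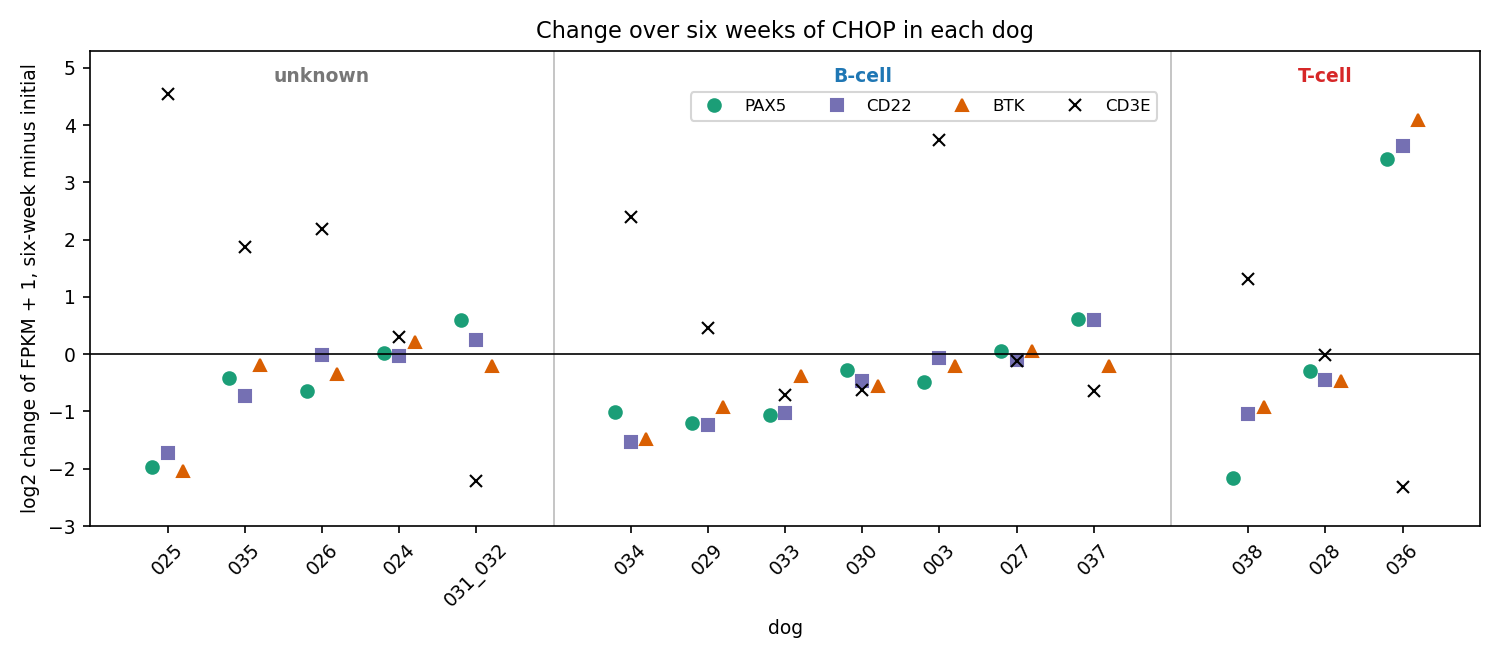
The six-week minus initial change of PAX5, CD22, BTK and CD3E in log2(FPKM + 1) in each dog, ordered within each immunophenotype label by the mean change of the first 3. The members lie below 0 in most dogs, dog 025 has the lowest unknown values with a change of -2.03 in BTK, and dog 036 is the only dog with all 3 above 0, with BTK at 4.09.

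In the 7 B-cell dogs the mean change was -0.55 (SE 0.420) for CD22, -0.53 (SE 0.431) for BTK and -0.48 (SE 0.455) for PAX5. All 3 were lower in 5 of the 7 dogs, and dogs 027 and 037 were mixed. Dog 034 had 13.03 and 27.3 FPKM of PAX5, 26.6 and 79.2 FPKM of CD22, and 44.2 and 125.6 FPKM of BTK, at the six-week and the initial timepoint. Dog 037 went the other way in PAX5 and CD22, with 42.2 and 27.2 FPKM of PAX5, 136.5 and 89.6 FPKM of CD22, but 91.0 and 105.0 FPKM of BTK. None of the 3 was called in B-cell dogs (adjusted p = 0.935 for each by limma), beside a background of 0% and 548 genes at an unadjusted p under 0.05, and edgeR called 0.

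In the 5 dogs of unknown immunophenotype the mean change was -0.51 (SE 0.510) for BTK, -0.48 (SE 0.538) for PAX5 and -0.45 (SE 0.497) for CD22, with all 3 lower in 3 dogs and 2 dogs mixed. Dog 025 had the lowest changes, with 9.14 and 38.5 FPKM of PAX5, 25.0 and 84.7 FPKM of CD22, and 44.99 and 187.3 FPKM of BTK at the six-week and the initial timepoint. CD3E in dog 025 was 167.9 FPKM at the six-week timepoint and 6.27 FPKM at the initial timepoint. The other 4 dogs lay between -0.73 and 0.60 in all 3 genes. None was called (adjusted p = 0.951 for each by limma), the background was 0% with 650 genes at an unadjusted p under 0.05, and edgeR called 0.

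The 3 T-cell dogs did not all move alike. All members were higher at the six-week timepoint in dog 036, as above. They were lower in dog 038, with changes of -2.16 for PAX5, -1.05 for CD22 and -0.92 for BTK. In dog 028 all 3 were low at both timepoints and also fell. PAX5 had 1.07 and 1.52 FPKM, CD22 had 2.23 and 3.43 FPKM, and BTK had 5.64 and 8.13 FPKM at the six-week and the initial timepoint. The mean change was 0.90 (SE 0.658) for BTK, 0.71 (SE 0.641) for CD22 and 0.32 (SE 0.694) for PAX5, none of them called by limma (adjusted p of 0.441, 0.542 and 0.816). These SEs rest on 1 spread shared by the 3 labels. Among the T-cell dogs themselves the standard deviation of the change was 2.77 for BTK, 2.55 for CD22 and 2.83 for PAX5. Among the B-cell dogs it was 0.525, 0.758 and 0.666 in the same order. The background was 0%, with 2862 genes at an unadjusted p under 0.05, whereas edgeR on the counts of dogs 036 and 038 called 16 genes, none of the 3 among them. Without dog 036 these means were negative, at -0.69 for BTK, -0.75 for CD22 and -1.22 for PAX5.

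The B-cell change minus the T-cell change was -1.43 (SE 0.786, adjusted p = 0.378 by limma) for BTK, -1.26 (SE 0.767, adjusted p = 0.418 by limma) for CD22 and -0.80 (SE 0.830, adjusted p = 0.633 by limma) for PAX5. A difference in change between the labels was therefore not shown. The background was 0%, with 2187 genes at an unadjusted p under 0.05, and edgeR called 10 genes, none of the 3 among them. Without dog 036 the difference was 0.16 for BTK, 0.21 for CD22 and 0.74 for PAX5.

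Genes of other cells moved beside the 3 genes. CD3E was higher at the six-week timepoint in 8 of all 15 dogs. Among the 10 dogs in which all 3 genes were lower, it was higher in 7. The 2 lowest mean changes, in dogs 025 and 038, came with a summed T-cell level 13.7 and 2.64 times that of the initial timepoint, and a summed macrophage level 10.8 and 4.11 times as high. In dog 034, the next in order, these sums were 4.86 and 5.91 times as high, and the sum of 14 mitosis genes was 0.189 times its initial level. In dogs 029 and 033, which came next, the T-cell sum was 1.24 and 0.852 times its initial level and the macrophage sum 0.855 and 0.463 times. In the summed plasma cell genes dog 038 stood out, at 12.5 times its initial level, against 0.735 to 3.35 times in the other 14 dogs. The part of these other cells in the change of PAX5, CD22 and BTK was not tested.

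Over all dogs, 0 genes of each list were called between timepoints. The median log2 change was -0.17 over the 5 receptor signalling genes, of which all 5 were negative, and -0.16 over the 7 B-lineage genes, beside -0.01 over all genes tested. VAV2 had a change of -0.46 (SE 0.197, adjusted p = 0.347 by limma) and PRKCB, a protein kinase C of the receptor pathway, had -0.22 (SE 0.107, adjusted p = 0.402 by limma). BCL11A, a transcription factor needed for B-cell development, had -0.36, and TNFRSF13B, the receptor TACI, had -0.33. The median was 0.69 over the 12 T-cell genes, all 12 of them positive, with 0.91 for the kinase ZAP70 and 0.85 for the surface protein CD5. It was 0.67 over 8 macrophage and monocyte genes, 0.51 over 6 plasma cell genes, 0.45 over 3 neutrophil genes, 0.39 over 6 stroma and endothelium genes and -0.51 over 14 mitosis genes. Of the plasma cell genes, PRDM1, which represses PAX5 when B cells become plasma cells, had 0.77 (SE 0.333, adjusted p = 0.357 by limma), and TXNDC5, a protein disulfide isomerase of the endoplasmic reticulum, had 0.66. Of 3 germinal centre genes the median was -0.04, with 0.32 for GCSAM, a signalling protein of germinal centre B cells, and -0.06 for STAP1.

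Among themselves, the 3 genes had high correlations over the initial libraries that were much lower once 2 dogs were left out. Over the 15 initial libraries, Pearson's r of log2(FPKM + 1) was 0.96 between PAX5 and CD22, 0.94 between BTK and CD22 and 0.93 between PAX5 and BTK. Spearman's rho was 0.63, 0.28 and 0.46 in the same order. Without dogs 036 and 028, the 2 farthest from the median profile, r over the other 13 was 0.56, 0.21 and 0.30, and rho was 0.42, -0.10 and 0.17, so that BTK and CD22 did not rank these 13 dogs alike. At the six-week timepoint r over 15 libraries was 0.96, 0.81 and 0.86. These correlations are given as descriptions, without a test, and the libraries of a pair of genes share their depth and cell make-up.

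The 10 genes with a symbol whose initial levels were most like the mean of the 3 over 15 dogs had an r of 0.93 to 0.98. The first 5 were RASAL2 (0.976), SKAP2 (0.963), MEF2C (0.960), DENND5B (0.948) and MPP6 (0.946), followed by FCRL1, HPSE, DCLRE1C, LRRK1 and PLD4. RASAL2, a Ras GTPase-activating protein, ranged from 1.22 to 57.3 FPKM, and FCRL1 ranged from a listed 0 to 13.7 FPKM. Without dogs 036 and 028, r was 0.14 (MPP6) to 0.71 (DENND5B) for these genes over 13 dogs. DENND5B kept the highest r without those dogs, and PLD4 followed at 0.66. At the six-week timepoint, r was 0.65 (HPSE) to 0.95 (RASAL2) over 15 libraries. Those libraries did not serve to choose the genes, but they came from the same 15 dogs, so they are not an independent check. Dog 028 was still the lowest in all 3 members there, and r without it was not computed.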

How the data were processed

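Bulk RNA sequencing of 30 lymph node aspirates from 15 dogs was analysed from processed tables. The submitters' processing notes name HISAT2 2.1.0 (aligner), StringTie 1.3.3 (transcript assembly) and the build CanFam3.1. FPKM per gene, as deposited by the authors, is scaled by length and depth and not log-transformed. The read count of each gene, deposited in a table of its own, is a whole number with no scaling. Symbols came from the study's supplementary tables. All columns were matched to samples (0 unmatched).

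The 3 genes and all lists were chosen with earlier results of these data known. Genes with a mean above 1 FPKM were tested as log2(FPKM + 1), a scale that understates changes of low genes, with limma 3.58.1 (trend) in R 4.3.3. An adjusted p under 0.05 was called. The immunophenotype had 3 levels, and the dog was a block between timepoints. The study gives 1 library per dog and timepoint. Within a timepoint, p-values thus measure the spread between dogs. Between timepoints, with the dog as a block, they measure the spread of the changes of the dogs. In the fits by label, 1 spread is shared by the 3 labels, so an SE given for a label is not the spread within it. Pairing followed the dog number in the titles for 14 dogs. The pair 031_032 was made by elimination. Deviations from group means correlated within dogs with a median of 0.521 (lowest -0.056, highest 0.880), above 0.1 in 13 of 15. The pairs not above 0.1 were those of dogs 036 (-0.056) and 025 (0.080). These dogs had the largest mean rise and the largest mean fall of the 3 genes. Whether their libraries are rightly paired was not tested beyond the number in the titles. No 2 libraries of a group were copies, with a lowest chi-square per degree of freedom of 59.3 over 68 pairs.

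Counts of 9 dogs were tested with edgeR 4.0.16 (quasi-likelihood). Counts of 6 dogs were left out because their Spearman correlation with FPKM was under 0.5. Both fits were run on simulated data with known changes, for the change over all dogs only. The simulated counts held no differences between dogs. The contrasts between labels and the changes within a label were not simulated. List genes were named by a rule: called genes, up to 4 per list by size of change, otherwise the 2 with the largest absolute change. They are named for 5 lists in 2 comparisons, and the other lists are given by counts and medians. The genes most like the members were the 10 with the highest r. Alternatives were a pseudocount of 0.1, no filter, a mean above 5 FPKM, quantile normalization, limma without trend, edgeR, no dog block and each dog left out. Python 3.11.15 with pandas 2.3.3 and Matplotlib 3.10.9 was used for summaries and plots.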

Additional observations from a re-analysis of the deposited data

Results flagged for a closer look

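Each member's FPKM and change were checked for a single dog far from the others in the B-cell and unknown groups, 18 groups in all, of which chance flags about 1 in 20. Within the 7 B-cell dogs at the initial timepoint, CD22 in dog 003 had 160.8 FPKM, and its gap to the next dog was 0.587 of the group's range. Among the 5 unknown dogs, the change of BTK in dog 025 was -2.03 on the log2 scale, and its gap to the next dog was 0.753 of the range.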

How the results depend on the processing

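Over all alternatives, the log2 fold changes of PAX5, CD22 and BTK kept their direction and their side of the threshold in 535 of the cases, crossed it in 9, all in the initial B-cell minus T-cell contrast, and reversed in 8. Genes called in that contrast numbered 49, against 6 with no filter, 106 with a mean above 5 FPKM (8723 genes tested), 150 with quantile normalization, 2 by edgeR, 15 by limma on the same 9 dogs, 3446 without dogs 029 and 038, and 1 to 2296 with single dogs left out. Of the 3 members, 0 were called there, against 1 (CD22, adjusted p = 0.0491 by limma) with a mean above 5 FPKM, 3 without dogs 029 and 038, and 0 to 3 with single dogs left out. At the six-week timepoint 11 genes were called without dogs 029 and 038 and 0 to 5 with single dogs left out. The unknown minus B-cell contrast called 0 to 1 genes with single dogs left out. CD22 in it ranged from -0.22 to 0.094, positive without dog 003 or 035. In the change over all dogs, 3054 genes were called with no filter, and the cause was not tested. STAP1 was 0.072 by edgeR and 0.0852 by limma on the same 9 dogs, and -0.26 to 0.026 with single dogs left out.

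In T-cell dogs, 13 genes were called with a pseudocount of 0.1, 16 by edgeR, 70 by limma on the same 9 dogs, and 0 to 1491 with single dogs left out, the highest without dog 028. The changes there with single dogs left out were -1.22 to 1.56 for PAX5, -0.75 to 1.59 for CD22 and -0.69 to 1.81 for BTK. The B-cell change minus the T-cell change called 4, 10 and 9 genes under the first 3 settings and 0 to 612 with single dogs left out. Its values ranged from -2.04 to 0.74 for PAX5, -2.14 to 0.21 for CD22 and -2.34 to 0.16 for BTK. Without dog 036 all 6 of these values reversed. Without dogs 036 and 038, chosen after the data were examined, the change over the other dogs was -0.46 for PAX5, -0.50 for CD22 and -0.52 for BTK, with an adjusted p of 0.457 for each by limma. With no replicate block, 0 genes were called in each change over time, with 523 at an unadjusted p under 0.05 over all dogs, and the block changed no other call. Over all alternatives, the adjusted p in the initial B-cell minus T-cell contrast was 1.61e-06 to 0.423 for CD22, 8.88e-07 to 0.613 for BTK and 3.30e-06 to 0.899 for PAX5. In the change over all dogs it was at least 0.282 for each. The SE of 0.737 to 0.806 in the initial label contrast rests on 1 spread shared by the 3 labels. That contrast had 3 T-cell dogs, with unlike values.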
